A study of Homo sapiens with 28 samples.

Results

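The BCL2 family sets the threshold at which a cell undergoes apoptosis through its mitochondria, and 10 of its genes were followed here across cell lines, drugs and times. Their probes were taken by gene symbol, with no threshold on a measured value: the anti-apoptotic BCL2, BCL2L1, BCL2L2, MCL1 and BCL2A1, the BH3-only BCL2L11, BBC3, PMAIP1 and HRK, and the effector BAX. In the platform's gene table, 9 of the 10 had a probe, 16 probes in all among the 47231 on the array; BBC3 had none there and is not analysed here. The 28 arrays covered 12 groups of cells from Z138 and JeKo-1, 2 cell lines grown from human mantle cell lymphoma, a cancer of B cells. The first experiment was a JeKo-1 time course of ONC201, an investigational drug whose known target is CLPP, a protease of the mitochondrion, with 3 wells each at 0, 12, 24 and 36 h; the labels give no dose. In the second, ONC201-resistant Z138 cells and parental, ONC201-naive Z138 cells each received 5 µM ONC201 for 24 h or stayed untreated (2 wells per group). The last experiment used JeKo-1 again, with 1 µM tunicamycin for 12 h or 24 h, 10 nM rapamycin for 24 h, and untreated cells of 24 h (2 wells per group). Untreated cultures received DMSO, the solvent. Tunicamycin blocks N-linked glycosylation, which leaves proteins of the endoplasmic reticulum misfolded. Rapamycin is an inhibitor of the kinase complex mTORC1.

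Wells were filled from one stock of each line, so the p-values speak of the spread from well to well, which may be technical. The experiments were run on separate chips, with the groups in order on each, so levels set across experiments also carry the chip, and place on the chip and group cannot be told apart. Between 29.7% and 35.2% of probes were detected per array. The B cell genes MS4A1, CD79A and CD79B and the mantle cell lymphoma gene SOX11 were detected on all 28 arrays. CCND1, the cyclin whose overexpression defines most mantle cell lymphomas, was detected on 8 of 8 Z138 arrays and on 0 of 20 JeKo-1 arrays. JeKo-1 thus did not show this marker of its disease label at the probe read. The probe's place in the transcript is not given, so the label cannot be judged from it. The T cell genes CD3D and CD3E, the myeloid gene LYZ and the erythroid gene HBB were detected on 0 arrays, while CD3G was detected on 8 of 8 Z138 arrays and on 0 of 20 JeKo-1 arrays. Of the other markers, the B cell gene CD22 was detected on 18 of 20 JeKo-1 and 4 of 8 Z138 arrays, the T cell gene CD2 on 3 and 1, and the myeloid genes CD14 on 5 and 2 and CSF1R on 1 and 0.

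Anti-apoptotic members hold the effectors BAX and BAK1 in check at the mitochondrial outer membrane. BH3-only members are the sensors of the system: they occupy the groove of the anti-apoptotic proteins or activate the effectors directly. Activated BAX forms pores through which cytochrome c leaves the mitochondrion and starts the caspase cascade. In mantle cell lymphoma BCL2 itself is a drug target, and PMAIP1, the gene of the MCL1-binding protein NOXA, is known as a target of the stress factor ATF4.

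Of the 10 genes, 8 had an entry among RefSeq's promoter sequences for GRCh38.p14 (9 entries, for all but MCL1 and BCL2L2). The 250 bases before the start of PMAIP1 (chr18:59899746-59899995, plus strand), HRK (chr12:116881442-116881691, minus strand) and BCL2 (chr18:63319770-63320019, minus strand) are shown because these 3 genes were called higher together in 6 of the comparisons below. Capitals mark matches, on either strand, to TGACG, the half-site of the cAMP response element, or to TGATGNAA, the core of the element bound by ATF4 with a C/EBP partner.
PMAIP1: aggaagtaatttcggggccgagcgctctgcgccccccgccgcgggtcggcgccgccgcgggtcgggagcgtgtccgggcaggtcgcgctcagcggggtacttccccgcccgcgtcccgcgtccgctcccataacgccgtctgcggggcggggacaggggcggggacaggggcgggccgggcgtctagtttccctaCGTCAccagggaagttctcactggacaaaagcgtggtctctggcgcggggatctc
HRK: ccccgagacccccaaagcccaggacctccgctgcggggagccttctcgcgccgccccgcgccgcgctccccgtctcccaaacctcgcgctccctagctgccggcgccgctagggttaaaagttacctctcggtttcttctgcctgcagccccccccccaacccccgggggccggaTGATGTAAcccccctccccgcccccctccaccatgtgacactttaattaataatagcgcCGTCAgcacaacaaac
BCL2: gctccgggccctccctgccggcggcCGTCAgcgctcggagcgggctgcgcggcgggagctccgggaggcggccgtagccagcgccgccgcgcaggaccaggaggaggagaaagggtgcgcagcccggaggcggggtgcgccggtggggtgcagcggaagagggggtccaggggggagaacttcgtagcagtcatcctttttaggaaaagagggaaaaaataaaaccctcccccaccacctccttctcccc
The TGACG match lay 55 bases before the start of PMAIP1, 16 before that of HRK and 225 before that of BCL2, each time on the opposite strand, so that the printed letters read CGTCA. HRK also held TGATGNAA, 75 bases before its start. Matches to TGACG further stood before BAX and in 1 of the 2 BCL2L1 windows, and TGATGNAA before BCL2A1. The full element TGACGTCA, which contains TGACG, was in no window of the members. Over 35116 promoter windows of the same length, 21.2% held TGACG, 3.14% TGATGNAA and 1.65% TGACGTCA, so a TGACG match is common. A match describes the letters of the window and says nothing of binding.

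The members differed in where they were expressed. Levels are given as normalized log2 intensity, on which a difference of 1 is a 2-fold difference, and a probe's level can be compared between samples but not with that of another probe. Each gene was read from its brightest probe. BCL2L11, the gene of BIM, showed the widest contrast between the lines. Its probe was detected on all 20 JeKo-1 arrays, with group means from 11.27 under rapamycin to 12.17 at 0 h, and on 0 of 8 Z138 arrays, where the means lay at 4.46 to 4.62. Set against the lowest detected signal of the untreated parental Z138 arrays, BCL2L11 was at least 76.8-fold higher in untreated JeKo-1 cells at 24 h and at least 113-fold higher in JeKo-1 cells at 0 h. A second BCL2L11 probe gave at least 22.5-fold and at least 21.4-fold. These bounds run across chips and have no test. On chromosome 2, within 1 Mb of BCL2L11, MTLN, BUB1 and ANAPC1 were detected on all 20 JeKo-1 and all 8 Z138 arrays. MERTK was detected on 7 of 20 and 2 of 8, and RGPD6, TMEM87B and FBLN7 on 0 arrays of either line. ACOXL and LOC124907867, the protein-coding genes on either side of BCL2L11, had no probe.

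The remaining members had other orders of level. BCL2, which was higher on every Z138 array than on any JeKo-1 array, ranged from 10.49 to 11.56 over the Z138 group means and from 7.98 to 9.13 over those of JeKo-1. PMAIP1 was split in the same way, with group means of 10.26 to 10.93 in Z138 and 6.05 to 8.19 in JeKo-1. BAX means were 9.76 to 10.65 in Z138 and 8.97 to 9.34 in JeKo-1. BCL2L1, the gene of BCL-XL, was highest in Z138 too (10.25 to 10.94), but the untreated JeKo-1 cells of 24 h (10.24) stood next to resistant Z138 cells under ONC201 (10.25) and overlapped them. MCL1, the anti-apoptotic member with the shortest-lived protein, had its highest mean in untreated JeKo-1 cells at 24 h (10.24), and the means from the 0 h JeKo-1 cells (9.64) down to the treated parental Z138 cells (9.21) each overlapped the next. HRK and BCL2L2 showed no such split by line. BCL2A1, an NF-kappaB target, was detected on 2 of 28 arrays, 1 at 0 h and 1 at 24 h of the ONC201 course, and did not enter any test. The detection filter thus left 8 of the 10 genes in both JeKo-1 experiments and 7 in Z138, where BCL2L11 was also missing.

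**Figure D1:**
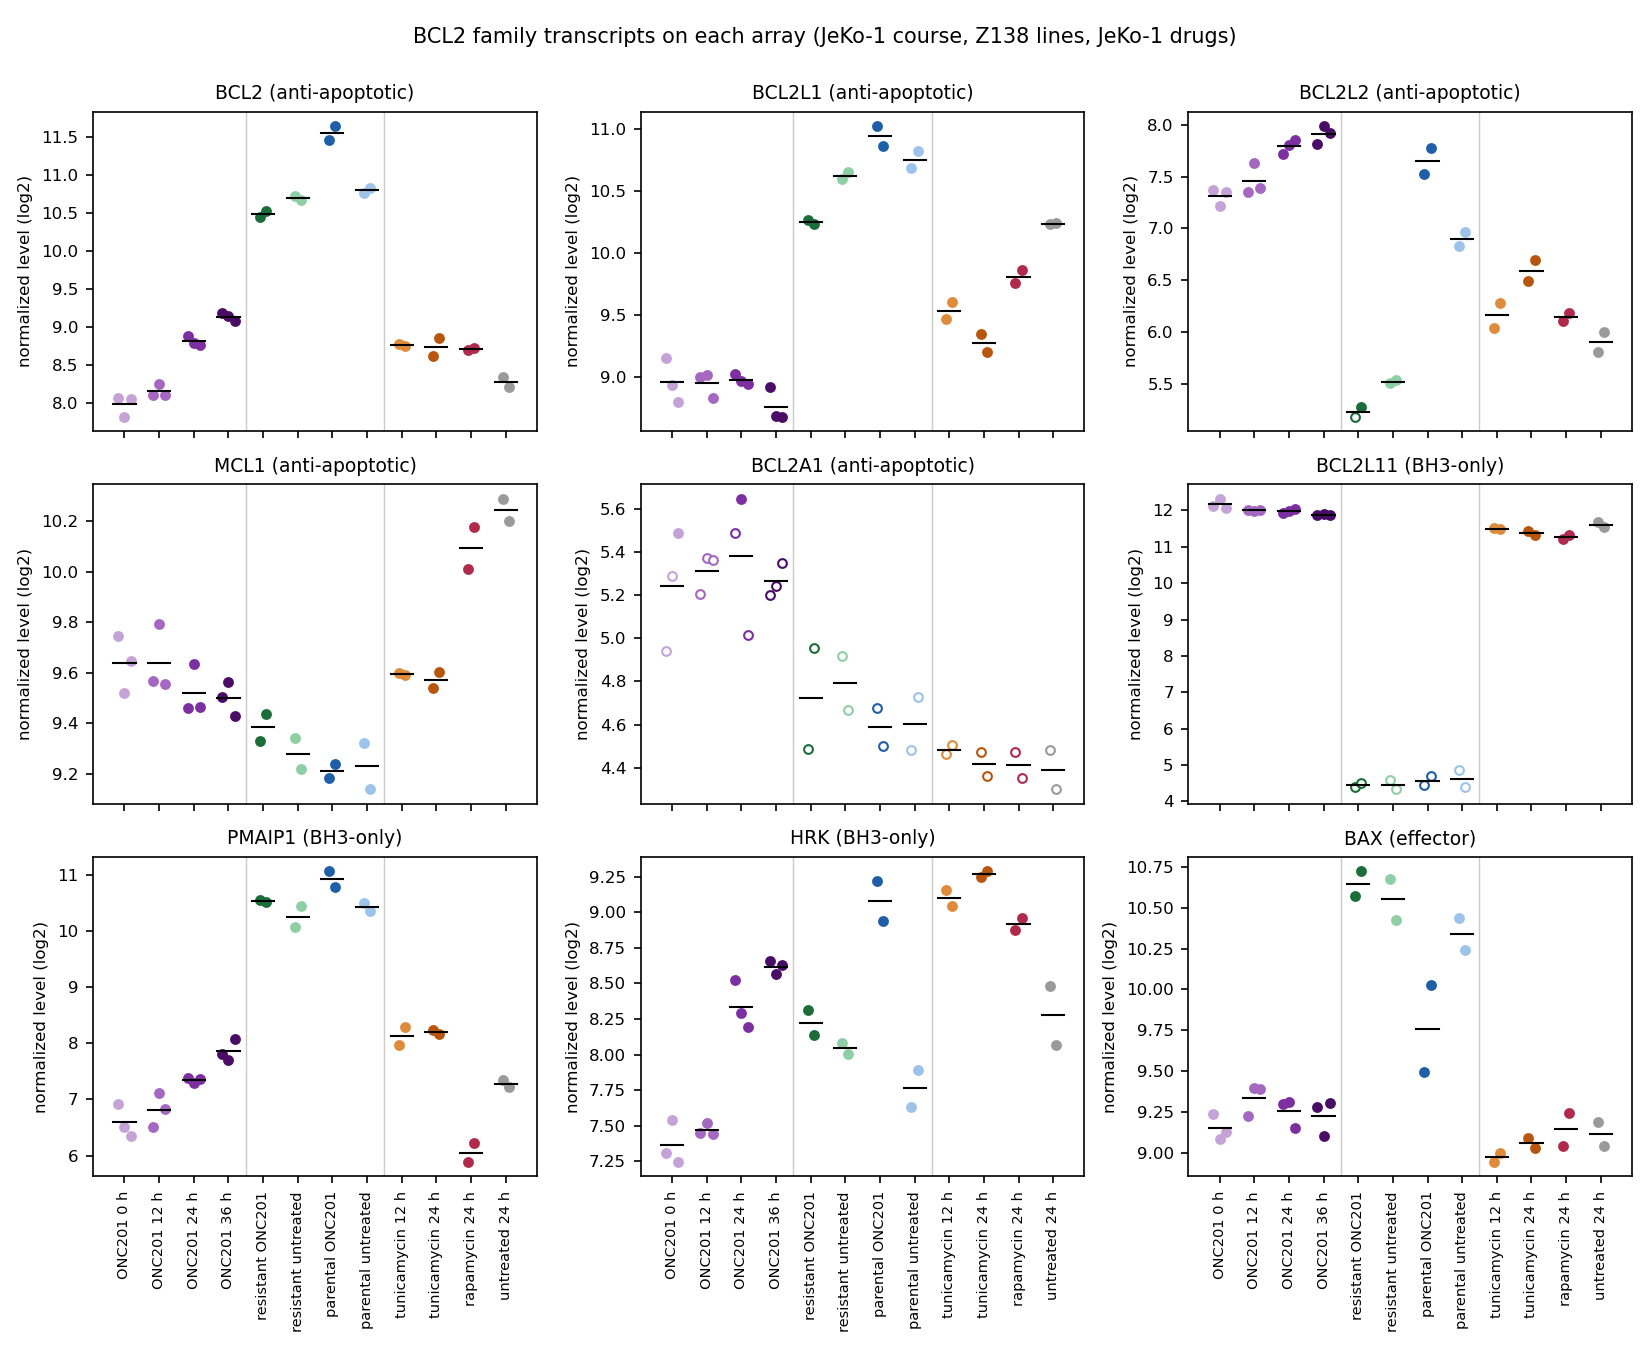
Normalized log2 level of each member's probe (y axis; each panel has its own range) on every array of the 12 groups (x axis), with the group mean as a black line; filled points were detected and open points were not. BCL2L11 is filled throughout JeKo-1 and open on all 8 Z138 arrays, and BCL2 and PMAIP1 lie higher on every Z138 array than on any JeKo-1 array.

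BH3-only and anti-apoptotic members were higher side by side after ONC201 in JeKo-1. HRK, a BH3-only gene known from dying neurons, PMAIP1, BCL2 and BCL2L2 were higher after 24 h and 36 h than at 0 h, BCL2L11 was lower at 36 h, and BCL2L1 and BAX did not pass the test at any time. Each change here also holds the time in culture, since no untreated JeKo-1 cells of 12, 24 or 36 h were on this chip. At 12 h, 0 of the 8 measured members were called by limma at an adjusted p under 0.05, where 3.82% of all 8823 genes were; 2 members, BCL2L11 and BAX, had an unadjusted p under that value, as had 18.8% of all genes. At 24 h, 4 of 8 were higher and 0 lower, where 19.9% of all genes were higher and 18.5% lower (38.3% called). At 36 h, 4 were higher and 1 lower, where 25.1% of all genes were higher and 25.9% lower (51% called). The median change of the 8 members was 0.29 at 24 h and 0.34 at 36 h, against 0.0018 and -0.0043 over all genes.

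Among the BH3-only genes, HRK and PMAIP1 were called higher at 24 h and 36 h. HRK stood at 7.31, 7.54 and 7.25 at 0 h, 7.45, 7.52 and 7.44 at 12 h, 8.52, 8.29 and 8.19 at 24 h, and 8.66, 8.57 and 8.63 at 36 h. The values of 24 h and 36 h lay above all of those at 0 h and 12 h. The changes against 0 h were 0.97 ± 0.10 (log2 fold change ± standard error, as throughout; n = 3 per group) at 24 h and 1.25 ± 0.10 at 36 h, with limma adjusted p of 1.44e-05 and 7.12e-07. PMAIP1 stood at 6.93, 6.51 and 6.34 at 0 h, 6.5, 7.12 and 6.83 at 12 h, 7.39, 7.29 and 7.36 at 24 h, and 7.81, 7.70 and 8.08 at 36 h. Its wells at 0 h and 12 h overlapped, and all later wells were higher than both. PMAIP1 changed by 0.75 ± 0.17 at 24 h (adjusted p = 0.00423) and by 1.27 ± 0.17 at 36 h (adjusted p = 5.74e-05). BCL2L11 moved the other way, with 12.11, 12.33 and 12.08 at 0 h, 12.02, 11.99 and 12.01 at 12 h, 11.94, 11.98 and 12.04 at 24 h, and 11.87, 11.90 and 11.88 at 36 h. Its 36 h wells lay below all others, and the change of -0.29 ± 0.07 passed the test (adjusted p = 0.00503), while that at 24 h was -0.19 ± 0.07 (adjusted p = 0.0554; 0.0339 without the third well of 0 h).

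Among the anti-apoptotic members, BCL2 stood at 8.07, 7.82 and 8.06 at 0 h, 8.10, 8.26 and 8.10 at 12 h, 8.88, 8.80 and 8.76 at 24 h, and 9.18, 9.14 and 9.08 at 36 h. It was higher by 0.83 ± 0.08 at 24 h and by 1.15 ± 0.08 at 36 h (adjusted p = 1.35e-05 and 3.73e-07), and its groups of 24 h and 36 h did not overlap. BCL2L2, the gene of BCL-w, stood at 7.37, 7.21 and 7.35 at 0 h, against which it was higher at 24 h, with 7.72, 7.81 and 7.86, by 0.48 ± 0.09 (adjusted p = 0.00107), and at 36 h, with 7.81, 7.99 and 7.92, by 0.60 ± 0.09 (adjusted p = 0.000127). Its wells of 24 h and 36 h overlapped each other and none of 0 h. The BCL2L2 signal is uncertain in its source, since the gene shares its start with the readthrough gene BCL2L2-PABPN1 and the files do not tell which of them the probe reads. BCL2L1 had changes of 0.02 ± 0.10 at 24 h and -0.20 ± 0.10 at 36 h, neither called, although the 36 h change was called without the third well of 0 h (adjusted p = 0.0375) or the first of 36 h (adjusted p = 0.046). BAX, the effector, had 0.10 ± 0.08 at 24 h and 0.08 ± 0.08 at 36 h.

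MCL1 depended on the probe. The brighter MCL1 probe (ILMN_1803988) had -0.12 ± 0.09 at 24 h and -0.14 ± 0.09 at 36 h and was not called. The dimmer one (ILMN_1756806), detected on all 28 arrays, stood at 6.35, 6.45 and 6.75 at 0 h, 6.45, 6.47 and 6.60 at 12 h, 5.86, 5.90 and 6.27 at 24 h, and 5.87, 6.22 and 5.85 at 36 h. All wells of 24 h and 36 h were lower than all wells of 0 h, with changes of -0.51 ± 0.14 and -0.54 ± 0.14 (adjusted p = 0.0161 and 0.00734 over 15534 probes, of which 32.9% and 46.8% were called). BCL2 was read by more probes: ILMN_1801119 gave 0.95 ± 0.09 and 1.29 ± 0.09 at 24 h and 36 h, both called. The dimmer ILMN_2363250 gave 0.02 ± 0.18 and 0.06 ± 0.18, neither called. It was detected on 1 of 3 arrays in each group of the course, so it lay near background and cannot tell whether BCL2 changed. The second BCL2L11 probe gave -0.22 ± 0.09 at 36 h without passing the test (adjusted p = 0.070). The second BAX probe gave -0.10 ± 0.21 and -0.15 ± 0.21 and, like the brighter one, was not called.

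The same 4 members were called between 24 h and 12 h, all higher at 24 h (20.7% of all genes called, 11% higher): HRK by 0.86 ± 0.10, BCL2 by 0.66 ± 0.08, PMAIP1 by 0.53 ± 0.17 and BCL2L2 by 0.34 ± 0.09. For PMAIP1 (adjusted p = 0.0434) leaving out any 1 of 5 of the 6 wells lost the call (adjusted p = 0.0842 to 0.156), all but well 2 of 12 h. For BCL2L2 the call was lost without wells 1 or 3 of 12 h or wells 2 or 3 of 24 h (adjusted p = 0.0539 to 0.0695). Between 24 h and 36 h, BCL2 alone of the 8 was called (14.5% of all genes called, 6.94% higher), by 0.32 ± 0.08 with adjusted p = 0.0189, and leaving out 1 of 4 wells lost it (wells 2 or 3 of 24 h, wells 1 or 2 of 36 h; adjusted p = 0.0567 to 0.0706). PMAIP1, at 0.52 ± 0.17, had adjusted p = 0.0585 and HRK, at 0.28 ± 0.10, adjusted p = 0.070; HRK was called without the first well of 24 h (adjusted p = 0.0261).

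Untreated JeKo-1 cells of 24 h were measured on the chip of the last experiment, and their levels bear on the course. The mean of HRK was 8.33 after 24 h with ONC201, against 8.28 in those untreated cells and 7.37 at 0 h. PMAIP1 had 7.34 after 24 h with ONC201, against 7.28 in the untreated cells of 24 h and 6.59 at 0 h. For both genes the treated cells of 24 h thus stood near the untreated cells of the same time and well above the 0 h cells. BCL2 had 8.81 with ONC201 at 24 h, against 8.28 in untreated cells at 24 h and 7.98 at 0 h, so it was higher than in both. BCL2L2 showed a larger gap across chips than any of its changes in the course, at 7.79 with ONC201 at 24 h against 5.90 untreated at 24 h and 7.31 at 0 h. BCL2L1 had 8.97 with ONC201 at 24 h, against 10.24 untreated at 24 h and 8.96 at 0 h, and MCL1 had 9.52 against 10.24 and 9.64. Time in culture and chip cannot be told apart in these levels, and no test was made across them. The summed level of 6 B cell genes was also lower at each later time of the course, with 18680 to 21080 intensity units per array at 0 h, 16570 to 18190 at 12 h, 14580 to 15910 at 24 h and 11850 to 12350 at 36 h; its part in the members' changes was not tested. The sum is of linear intensities, so the brightest probes weigh most. In JeKo-1 that was CD79B (13.14 to 13.98 log2), before CD79A (10.92 to 12.01), while CCND1 was not detected. In Z138, CCND1 (11.59 to 12.01) weighed about as much as CD79B (11.45 to 12.26). Gene by gene in the course, MS4A1, CD79A and CD79B were lower at 24 h and 36 h, and SOX11 was higher at 36 h (0.21). In RNA from whole cultures, fewer cells of a kind and less RNA per cell cannot be told apart.

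**Figure D2:**
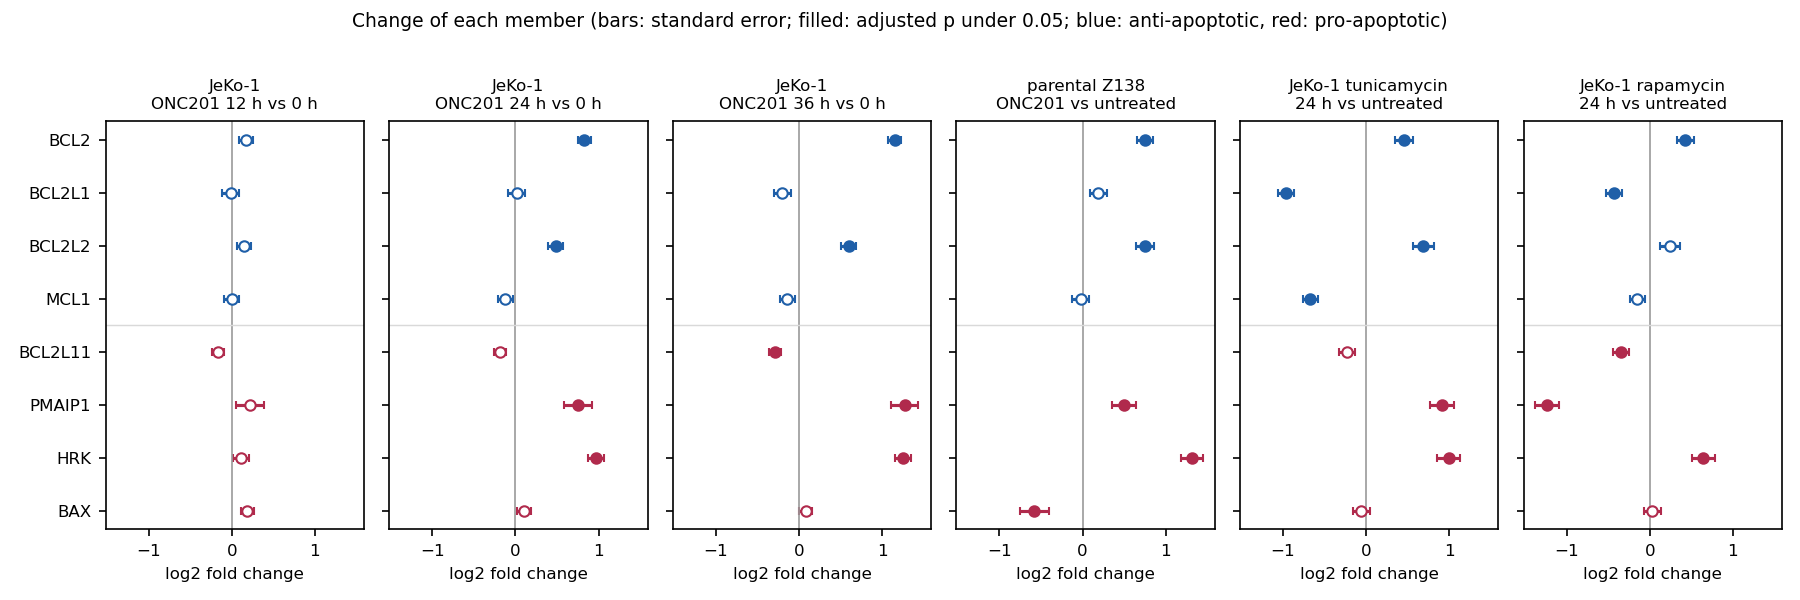
Log2 fold change (x axis) of each measured member (rows; anti-apoptotic in blue above the line, pro-apoptotic in red below) in 6 comparisons, with standard error; filled points passed the adjusted p of 0.05. HRK and BCL2 are filled to the right in the last 5 panels, PMAIP1 is to the right at 24 h and 36 h of ONC201, in parental Z138 and under tunicamycin but to the left under rapamycin (-1.23), and BCL2L1 is filled to the left under tunicamycin (-0.97) and rapamycin (-0.43).

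In Z138 the members responded to ONC201 in parental cells, and 0 passed the test in resistant cells. After 24 h at 5 µM, 4 of 7 measured members were higher and 1 lower in parental cells, where 22.8% of all 9453 genes were higher and 21.9% lower (44.8% called). The 4 were the same genes as in JeKo-1: HRK, BCL2, BCL2L2 and PMAIP1. The lower one was BAX. In resistant cells 0 of 7 were called, where 0.487% of all genes were; 2 members, BCL2L1 and BCL2L2, had an unadjusted p under 0.05, as had 19.7% of all genes. Between these effects, 4 members differed by the test of the difference itself, all lower in resistant cells (30.5% of all genes called, 16.3% lower). The members' median was 0.50 in parental cells, against 0.0016 over all genes, and -0.57 for the difference between the lines, against -0.0074. The summed level of the 6 B cell genes was 11120 to 11850 in treated and 10600 to 11270 in untreated resistant cells, and 10260 to 10780 in treated and 10850 to 12050 in untreated parental cells; its part was not tested. Gene by gene, SOX11 was higher (1.03) and 3 of the 6 markers lower in treated parental cells, with MS4A1 at -1.61.

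HRK stood at 8.31 and 8.14 in treated and at 8.08 and 8.0 in untreated resistant cells, and at 9.22 and 8.94 in treated and 7.63 and 7.89 in untreated parental cells. Its treated parental wells were the highest of the 8, and its treated resistant wells lay above the untreated ones by little. The effect was 0.18 ± 0.13 in resistant and 1.32 ± 0.13 in parental cells (adjusted p = 0.491 and 0.000149), a difference of -1.13 ± 0.19 (adjusted p = 0.00339). PMAIP1 had 10.55 and 10.51 in treated and 10.07 and 10.45 in untreated resistant cells, and 11.07 and 10.79 in treated and 10.5 and 10.36 in untreated parental cells. Neither line's treated and untreated wells overlapped for PMAIP1. Its effect was 0.27 ± 0.14 in resistant cells (adjusted p = 0.334) and 0.50 ± 0.14 in parental cells (adjusted p = 0.0215), and the difference of -0.23 ± 0.20 did not pass the test (adjusted p = 0.434). The parental call of PMAIP1 was lost without the second untreated well (adjusted p = 0.101) or the first treated well (adjusted p = 0.139).

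BCL2 had 10.45 and 10.53 in treated and 10.72 and 10.68 in untreated resistant cells, and 11.46 and 11.65 in treated and 10.76 and 10.84 in untreated parental cells. It thus lay below its untreated wells in resistant cells and above them in parental cells. The effects were -0.21 ± 0.10 (adjusted p = 0.280) in resistant and 0.76 ± 0.10 (adjusted p = 0.000481) in parental cells, a difference of -0.96 ± 0.14 (adjusted p = 0.00182). The second BCL2 probe, at -0.64 ± 0.14, also passed the test of the difference (adjusted p = 0.015 over 17291 probes, 23.2% called). The third (ILMN_2363250), at -0.39 ± 0.27, did not. It lay near background and was detected on 1 of 2 untreated parental arrays. BCL2L1 had 10.26 and 10.23 in treated and 10.59 and 10.65 in untreated resistant cells, and 11.02 and 10.86 in treated and 10.68 and 10.82 in untreated parental cells. Its effect in resistant cells, -0.37 ± 0.10, had adjusted p = 0.0987, and that in parental cells, 0.19 ± 0.10, adjusted p = 0.15. Neither passed alone, but their difference of -0.57 ± 0.14 did (adjusted p = 0.0169), with -0.58 ± 0.17 at the second BCL2L1 probe (adjusted p = 0.0418). Leaving out the first untreated or first treated parental well, or the second untreated or second treated resistant well, moved the adjusted p of the BCL2L1 difference to between 0.0504 and 0.0573.

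BCL2L2 differed between the lines before treatment as well. It had 5.18 and 5.27 in treated and 5.51 and 5.53 in untreated resistant cells, and 7.53 and 7.77 in treated and 6.83 and 6.96 in untreated parental cells. All 4 resistant wells were below all 4 parental wells, and 1 treated resistant well was not detected. Among untreated cells, BCL2L2 was the 1 member of 7 called between the lines (3.91% of all genes called, 2.39% lower), at -1.38 ± 0.11 (adjusted p = 0.000265; -0.79 with no background correction, adjusted p = 7.48e-06). Under ONC201 the resistant minus parental difference was -2.43 ± 0.11 (adjusted p = 2e-06; -1.48 with no background correction, adjusted p = 1.26e-10). With 1 of the 2 treated resistant wells not detected, the size of this difference is uncertain. The effects of ONC201 were -0.29 ± 0.11 in resistant (adjusted p = 0.191) and 0.76 ± 0.11 in parental cells (adjusted p = 0.000832), differing by -1.05 ± 0.15 (adjusted p = 0.00204; -0.69 with no background correction, adjusted p = 0.000311). The doubt about the readthrough gene holds here as well.

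BAX, which executes the pore step, had 10.57 and 10.72 in treated and 10.68 and 10.43 in untreated resistant cells, and 9.49 and 10.03 in treated and 10.44 and 10.24 in untreated parental cells. The treated parental wells were the lowest of the 8 and differed from each other more than any other pair. The parental effect of -0.58 ± 0.18 was called (adjusted p = 0.0265), but not without the first treated well (-0.31, adjusted p = 0.163) or the first untreated well (-0.48, adjusted p = 0.124). The second BAX probe (ILMN_1683300) gave -0.67 ± 0.15 in parental cells (adjusted p = 0.00854, where 36.3% of all probes were called) and -0.54 ± 0.15 in resistant cells (adjusted p = 0.136). The difference between the lines was 0.68 ± 0.25 (adjusted p = 0.0705) at the brighter probe, called without the second treated parental well (0.94, adjusted p = 0.0175), and 0.13 ± 0.21 at the second (adjusted p = 0.693). MCL1 had effects of 0.10 ± 0.10 in resistant and -0.02 ± 0.10 in parental cells at the brighter probe. The dimmer MCL1 probe had means of 6.86 in treated and 6.84 in untreated resistant cells. In parental cells it had 6.47 in treated and 6.77 in untreated wells. With the mean of its probes, MCL1 was called higher in treated resistant than in treated parental cells (0.28, limma adjusted p = 0.0396), but not at the brighter probe. Comparing treated cells only, 5 of 7 members were lower and BAX was higher in resistant cells, where 25.1% and 24.9% of all genes were (50% called). Besides BCL2L2 these were BCL2 (-1.06 ± 0.10), HRK (-0.85 ± 0.13), BCL2L1 (-0.70 ± 0.10), PMAIP1 (-0.40 ± 0.14, adjusted p = 0.0474) and BAX (0.89 ± 0.18). With the mean of its probes BCL2 had -0.71 and was still called. The second BAX probe had means of 5.92 in treated resistant and 5.62 in treated parental cells, a smaller gap than at the brighter one. The PMAIP1 call was lost without the first treated parental well (adjusted p = 0.257) or either treated resistant well (adjusted p = 0.111 and 0.144).

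**Figure D3:**
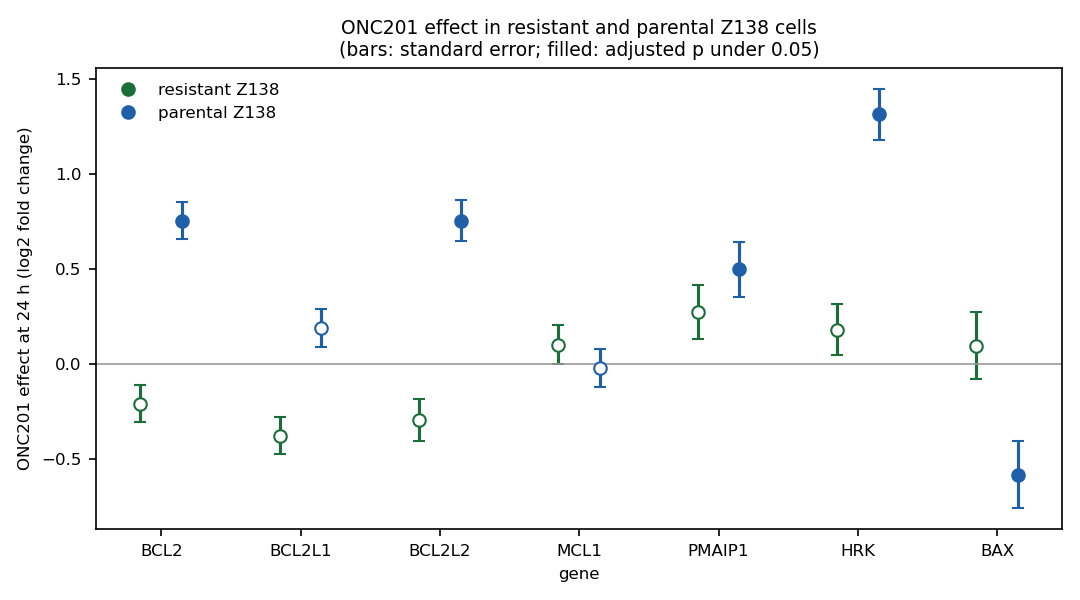
Effect of 24 h of 5 µM ONC201 (y axis, log2 fold change with standard error) on the 7 members measured in Z138 (x axis), with resistant cells in green left of parental cells in blue; filled points passed the adjusted p of 0.05. No point is filled for resistant cells, and HRK, BCL2 and BCL2L2 have the widest gaps, of -1.13, -0.96 and -1.05.

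Under tunicamycin, anti-apoptotic members of JeKo-1 were called in both directions. PMAIP1, HRK and BCL2 were higher and BCL2L1 and MCL1 lower at 12 h and at 24 h than in untreated cells of 24 h, and BCL2L2 was higher at 24 h. At 12 h, 3 of 8 members were higher and 2 lower, where 13.8% of all 9517 genes were higher and 11.7% lower (25.5% called). At 24 h, 4 were higher and 2 lower, where 17.2% were higher and 15.3% lower (32.6% called). The members' median at 24 h was 0.20, against 0.013 over all genes. The untreated cells of 24 h served both times, so the 12 h comparison also holds a difference in time.

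BCL2L1 had 9.46 and 9.6 at 12 h and 9.34 and 9.20 at 24 h of tunicamycin, against 10.23 and 10.24 in untreated cells. All 4 tunicamycin wells were lower, by -0.70 ± 0.10 at 12 h and -0.97 ± 0.10 at 24 h (adjusted p = 0.00223 and 0.0003). The second BCL2L1 probe was lower at 24 h only (-0.59 ± 0.13, adjusted p = 0.0144), with 0.05 ± 0.13 at 12 h. This probe was detected on 0 of 2 arrays at 24 h, so the size of its change is uncertain. MCL1 had 9.6 and 9.59 at 12 h and 9.54 and 9.6 at 24 h, against 10.29 and 10.20 in untreated cells. These wells did not overlap either, and both MCL1 probes were lower at both times: the brighter by -0.65 ± 0.09 and -0.67 ± 0.09, the dimmer by -0.67 ± 0.13 and -0.70 ± 0.13. BCL2 had 8.77 and 8.76 at 12 h and 8.62 and 8.86 at 24 h, against 8.34 and 8.22 in untreated cells. It was higher by 0.48 ± 0.10 and 0.46 ± 0.10 (adjusted p = 0.0135 and 0.0129). The BCL2 call was lost at 12 h without the second untreated well or either treated well (adjusted p = 0.0567 to 0.0736) and at 24 h without the second untreated or second treated well (adjusted p = 0.0727 and 0.0726). BCL2L2 had 6.49 and 6.69 at 24 h, against 5.80 and 6.0 in untreated cells, a change of 0.69 ± 0.12 (adjusted p = 0.00487).

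The BH3-only genes PMAIP1 and HRK were higher in every tunicamycin well. PMAIP1 had 7.97 and 8.29 at 12 h and 8.23 and 8.16 at 24 h, against 7.34 and 7.23 in untreated cells, with changes of 0.85 ± 0.14 and 0.91 ± 0.14 (adjusted p = 0.00533 and 0.00271). HRK had 9.16 and 9.04 at 12 h and 9.25 and 9.29 at 24 h, against 8.49 and 8.06 in untreated cells, with changes of 0.82 ± 0.14 and 0.99 ± 0.14 (adjusted p = 0.00502 and 0.00148). The untreated HRK wells were further apart than those under tunicamycin. BCL2L11 gave -0.23 ± 0.09 at 24 h (adjusted p = 0.107) at the brighter probe, while its second probe (ILMN_1766541) was lower by -0.43 ± 0.10 at 12 h and -0.53 ± 0.10 at 24 h (adjusted p = 0.0234 and 0.00789 over 17199 probes, of which 19% and 25.4% were called). BAX had -0.14 ± 0.10 at 12 h and -0.06 ± 0.10 at 24 h. Between 24 h and 12 h of tunicamycin 0 of 8 members were called (4.05% of all genes), with 2, BCL2L1 and BCL2L2, at an unadjusted p under 0.05, as were 20.8% of all genes.

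Under rapamycin, BH3-only genes were called in both directions. PMAIP1 had 5.89 and 6.22 under rapamycin, against 7.34 and 7.23 in untreated cells, a change of -1.23 ± 0.14 (adjusted p = 0.00142). HRK had 8.87 and 8.96, against 8.49 and 8.06 in untreated cells, and was higher by 0.64 ± 0.14 (adjusted p = 0.0145). BCL2L11 had 11.22 and 11.33, against 11.69 and 11.54 in untreated cells, and was lower by -0.34 ± 0.09 (adjusted p = 0.036) and by -0.53 ± 0.10 at the second probe (adjusted p = 0.012, where 19.5% of all probes were called). The wells of the 2 groups did not overlap for any of these 3 genes, nor for any other measured member but BAX. BCL2L2 and MCL1, which were not called, are among those without overlap. Such a split is common with 2 wells per group, and its share over all genes is not given here. In all, 2 of 8 members were higher and 3 lower, where 12% of all genes were higher and 12.6% lower (24.5% called), and the median was -0.06, against 0.0061 over all genes. The summed level of the B cell genes was 19900 to 20600 under rapamycin and 16950 to 17730 at 24 h of tunicamycin, against 16300 to 16840 in untreated cells, and its part was not tested. Gene by gene, 4 of the 5 measured B cell markers were higher and SOX11 lower (-0.62) under rapamycin, whereas at 24 h of tunicamycin 0 were higher and 2 lower, MS4A1 (-0.78) and SOX11 (-0.43). BCL2, with 8.70 and 8.72 against 8.34 and 8.22 in untreated cells, was the other higher member (0.43 ± 0.10, adjusted p = 0.022), and BCL2L1, with 9.76 and 9.86 against 10.23 and 10.24, the other lower one (-0.43 ± 0.10, adjusted p = 0.0171). BCL2L2 and MCL1 gave 0.24 ± 0.12 and -0.15 ± 0.09. The dimmer MCL1 probe had means of 6.51 under rapamycin and 6.91 in untreated cells.

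Leaving out any 1 of the 4 wells of the rapamycin comparison left 1 well in a group, which weakens the test for every gene. Fewer members were then called each time, and the share of all genes called in these fits is not given here. The BCL2 and BCL2L11 calls were lost in all 4 cases, with changes of 0.37 to 0.49 for BCL2 and of -0.42 to -0.27 for BCL2L11. The BCL2L1 call was lost without either untreated well (adjusted p = 0.0736 and 0.0683) or the first rapamycin well (adjusted p = 0.0842), and that of HRK without the second rapamycin well (adjusted p = 0.066). PMAIP1 was called in all 4. The second BCL2L1 probe gave -0.13 ± 0.13 under rapamycin (adjusted p = 0.507), and over all probes the brighter BCL2L11 probe had adjusted p = 0.0518.

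Set against each other at 24 h, tunicamycin and rapamycin differed in 4 of 8 members (34.6% of all genes called, 18.2% higher and 16.5% lower). PMAIP1 was higher under tunicamycin by 2.14 ± 0.14 (adjusted p = 3.31e-05). BCL2L2 was higher by 0.44 ± 0.12 (adjusted p = 0.0279), a call lost without the second tunicamycin well or either rapamycin well (adjusted p = 0.0696 to 0.145). BCL2L1 (-0.54 ± 0.10) and MCL1 (-0.52 ± 0.09) were lower under tunicamycin. The MCL1 value is that of the brighter probe, and the dimmer one had means of 6.21 under tunicamycin and 6.51 under rapamycin. HRK, at 0.35 ± 0.14, did not pass (adjusted p = 0.0853, although it did under 5 of 9 alternatives of processing), and BCL2 had 0.03 ± 0.10. The 2 drugs were given at different doses, 1 µM and 10 nM.

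**Figure D4:**
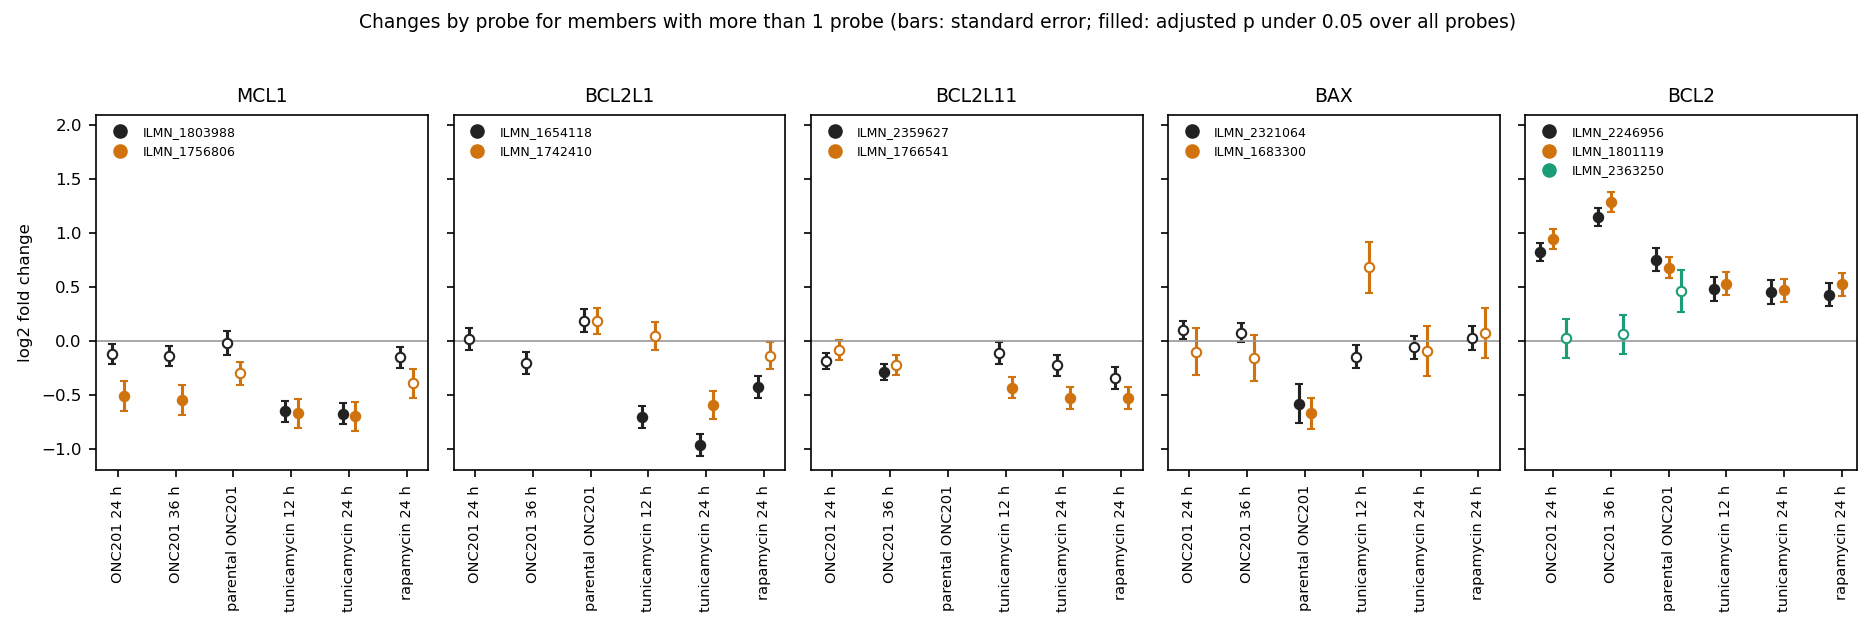
Log2 fold change (y axis, with standard error) in 6 comparisons (x axis) for each probe that passed the detection filter, for the 5 members with more than 1 probe; filled points passed the adjusted p of 0.05 over all probes. The probes of BCL2 at 0.83 and 0.95 lie together at 24 h of ONC201, whereas those of MCL1 separate (-0.12 and -0.51) and those of BCL2L1 separate at 12 h of tunicamycin (-0.70 and 0.05).

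The effects of ONC201 at 24 h were also set against those of the other experiments, in a fit over all 28 arrays with the 7 members and 8164 genes kept in every experiment. The control of the JeKo-1 course was harvested at 0 h and the others at 24 h, so a difference of effects also holds that time. Against parental Z138, 1 of 7 members differed (27.4% of all genes called, 13.7% higher): the BAX effect was higher in JeKo-1 by 0.68 ± 0.17 (adjusted p = 0.00495). It was lost without the first treated parental well (0.42, adjusted p = 0.0665). The differences of HRK (-0.35 ± 0.17), PMAIP1 (0.25 ± 0.24), BCL2 (0.07 ± 0.12) and BCL2L2 (-0.27 ± 0.14) were not called. Against tunicamycin, 3 of 7 were higher with ONC201 (27.5% called, 13.3% higher): BCL2L1 by 0.98 ± 0.14, MCL1 by 0.55 ± 0.13 and BCL2 by 0.37 ± 0.12. For MCL1 this is the brighter probe. The dimmer MCL1 probe had means of 6.52 at 0 h and 6.01 at 24 h of ONC201. It had 6.91 in untreated cells of 24 h and 6.21 at 24 h of tunicamycin, so it was lower under both drugs. BCL2 lost its call without the second well of 0 h, the first of ONC201 at 24 h, the first untreated well of 24 h or the first of tunicamycin at 24 h (adjusted p = 0.0592 to 0.188). PMAIP1 and HRK differed by -0.16 ± 0.24 and -0.02 ± 0.17 from tunicamycin and were not called. Against rapamycin, 3 of 7 were higher with ONC201 (32.9% called, 16.4% higher): PMAIP1 by 1.98 ± 0.24, BCL2L1 by 0.44 ± 0.14 and BCL2 by 0.40 ± 0.12. The BCL2L1 call was lost without the first rapamycin well (adjusted p = 0.0713) and the BCL2 call without the first untreated well (adjusted p = 0.0831), while HRK (0.33 ± 0.17) was called without the second untreated well (0.54, adjusted p = 0.0259).

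Further genes of the family were counted from a list of 12. At 24 h of ONC201 in JeKo-1, 4 of 8 measured were higher and 2 lower, with a median of 0.09 against 0.0018 over all genes; BMF, a BH3-only gene tied to the cytoskeleton, was higher by 0.79 and BNIP3L, a mitophagy receptor, by 0.78. At 36 h it was 4 and 1, with BMF at 1.14. In parental Z138, 2 of 9 were higher and 4 lower (median -0.0081, against 0.0016 over all genes), with BIK, a BH3-only gene of the endoplasmic reticulum, at -0.96 and BNIP3L at 0.76. In resistant Z138 0 of 9 were called, and the difference between the lines was called for BIK (0.71), BNIP3L (-0.57), BNIP3 (0.46) and BCL2L13 (-0.36). BNIP3L was also the 1 gene of this list called between untreated resistant and parental cells, at -0.74. Tunicamycin at 24 h gave 2 higher and 4 lower of 9 (median -0.20), with BIK at -1.21 and BNIP3, a relative of BNIP3L, at -1.12. Rapamycin gave 1 higher and 4 lower (median -0.28), with BIK at 1.38, BNIP3 at -1.49 and the effector BAK1 at -0.64. BIK was thus lower under tunicamycin than under rapamycin, by -2.59, and BMF higher, by 1.13. Over all genes, 38.3% were called at 24 h and 51% at 36 h of ONC201 in JeKo-1, 44.8% in parental and 0.487% in resistant Z138. For the difference between the lines it was 30.5%, between untreated resistant and parental cells 3.91%, at 24 h of tunicamycin 32.6% and under rapamycin 24.5%.

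Downstream of BAX, 11 of 15 listed genes were measured. At 24 h of ONC201 in JeKo-1, 2 were higher and 2 lower (median -0.04), 4 of 11 where 38.3% of all genes were called; CYCS, the gene of cytochrome c, was lower by -0.81 and ENDOG, a mitochondrial nuclease, by -0.50. In parental Z138, 1 was higher and 3 lower (median -0.14), where 44.8% of all genes were called, with the caspase genes CASP6 at -0.55 and CASP9 at -0.36 and the inhibitor gene BIRC2 at 0.50. In resistant Z138 0 of 11 were called, where 0.487% of all genes were. The difference between the lines was called for BIRC2 (-0.78), where 30.5% of all genes were called. Tunicamycin at 24 h gave 1 higher and 0 lower (BIRC2, 0.28; median -0.06), where 32.6% of all genes were called, and rapamycin 1 higher (BIRC2, 0.41) and 1 lower (CASP6, -0.40; median 0.05), where 24.5% were. The medians over all genes were 0.0018 at 24 h of ONC201 in JeKo-1, 0.0016 in parental Z138, 0.013 at 24 h of tunicamycin and 0.0061 under rapamycin, for this list and the next ones.

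Of 15 listed regulators of the members, 11 were measured. DDIT3, the gene of the stress factor CHOP, was higher by 2.18 at 24 h and 2.62 at 36 h of ONC201 in JeKo-1, by 2.62 in parental Z138 and by 2.30 under tunicamycin at 24 h, and lower by -1.31 under rapamycin. ATF4 had 0.52, 0.67, 0.47, 0.70 and -0.76 in the same comparisons, all called. FOXO3, a transcription factor known to act on BCL2L11, was higher by 0.60 at 24 h and 1.09 at 36 h of ONC201 in JeKo-1. The list held 5 higher and 0 lower at 24 h (median 0.21), 3 and 0 in parental Z138 (median 0.20), 0 and 0 in resistant Z138, 4 and 1 under tunicamycin at 24 h (median 0.28), and 0 and 2 under rapamycin (median 0.15). These counts stand against 19.9% of all genes higher at 24 h, 22.8% higher in parental Z138, 17.2% higher under tunicamycin at 24 h and 12.6% lower under rapamycin. In resistant Z138 0.487% of all genes were called, and 30.5% for the difference between the lines. The test of the difference between the Z138 lines was passed by DDIT3 (-2.29) and FBXW7 (-0.86), a ubiquitin ligase gene known to act on MCL1 protein.

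Of 16 other genes known as p53 targets, 8 were measured in the course, 12 in Z138 and 9 with tunicamycin and rapamycin. GDF15, a stress cytokine gene, was higher by 1.89 at 36 h of ONC201 in JeKo-1, by 2.89 in parental Z138 and by 2.43 under tunicamycin at 24 h. The list held 3 higher and 2 lower at 24 h of ONC201 (median 0.22), 5 and 0 at 36 h (median 0.31), 4 and 3 in parental Z138 (median 0.06), 0 and 0 in resistant Z138, 2 and 2 under tunicamycin at 24 h (median -0.03) and 0 and 1 under rapamycin (median 0.03). Over all genes, 38.3%, 51%, 44.8%, 0.487%, 32.6% and 24.5% were called in these comparisons. BAX and PMAIP1 are themselves known as p53 targets, and their changes in parental Z138 had opposite signs (-0.58 and 0.50). Without the first treated well these changes were -0.31 and 0.36. The part of p53 in them was not tested. In resistant Z138, where no gene of the 4 lists was called by limma, an unadjusted p under 0.05 was reached by 2 of 9 other family genes, 1 of 11 pathway genes, 3 of 11 regulators and 2 of 12 p53 targets, as by 19.7% of all genes.

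Over the 12 group means, centred within each experiment, BCL2 and HRK were the 2 members most alike (Pearson r = 0.911), and BAX and BCL2L2 the most unlike (r = -0.856). MCL1 and PMAIP1 had r = -0.725. Among all genes kept in the 3 experiments, the pattern most like that of PMAIP1 was that of YARS1, a tRNA synthetase gene (r = 0.990), followed by BCAT1, a gene of branched amino acid turnover (r = 0.986). For HRK the 2 most alike were BTN3A1 (0.978) and TERF2IP (0.968), for BCL2 AGTPBP1 (0.981) and PCBP2 (0.978), and for BCL2L2 FBXO4 (0.987) and GTF3C3 (0.959). For BCL2L1 they were IFITM2 (0.954) and ARHGEF1 (0.950), for MCL1 MIDN (0.965) and HIVEP3 (0.959), and for BAX CBX2 (0.972) and SCD5 (0.963). These correlations describe 12 points that share chips and control groups and carry no test.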

How the data were processed

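Gene expression was read on Illumina HT-12 bead arrays. RNA was isolated with TriZOL and RNAqueous and given a biotin label, per the labels' protocols. The submitters' processing notes name GenomeStudio as the software. The deposited table used holds, per the file headers, a linear intensity for each probe without background correction and a detection p-value. Another deposited table, of intensities after the authors' own normalization (how is not given in the sources used here), served as an alternative.

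The intensities were corrected and quantile-normalized over the 28 arrays with neqc of limma 3.58.1 (R 4.3.3; offset 16), which inferred the background from the detection p-values, and taken to log2; the deposited files hold no log2 values. Probes needed a detection p below 0.01 on 3 or more arrays of the JeKo-1 course, or 2 or more in the other experiments. Of the probes, 27004 carried 1 gene symbol, 4 several and 20223 none. Each gene took its brightest kept probe. Limma was fitted per experiment, and over all 28 arrays for differences between experiments, with Benjamini-Hochberg adjustment over all genes and a threshold of 0.05. Wells with the same replicate number did not deviate together. Genes named outside the family are up to 4 per list and comparison with the largest called change. The members and lists (other BCL2 family genes, the pathway after BAX, regulators, p53 targets, cell type markers) were chosen with earlier results of these data known. The fits were tested on simulated data. Bounds use the lowest detected signal of the undetected group's arrays. The number of arrays limits the precision. Figures were drawn with matplotlib 3.10.9.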

Additional observations from a re-analysis of the deposited data

Results flagged for a closer look

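The effect of ONC201 differed between resistant and parental Z138 cells, by limma's test of the difference, for HRK (-1.13 ± 0.19, adjusted p = 0.00339), BCL2L2 (-1.05 ± 0.15, adjusted p = 0.00204), BCL2 (-0.96 ± 0.14, adjusted p = 0.00182) and BCL2L1 (-0.57 ± 0.14, adjusted p = 0.0169). The ONC201 effect on BAX at 24 h differed between JeKo-1 and parental Z138 (0.68 ± 0.17, adjusted p = 0.00495); the controls of this comparison were harvested at 0 h and 24 h and lay on different chips. No group held 4 or more arrays, so single arrays could not be tested as outliers within a group.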

How the results depend on the processing

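The comparisons were repeated under 9 alternatives (no background correction, an offset of 50, median scaling, quantile normalization within each experiment, the authors' normalized values, no detection filter, the mean of a gene's probes, the replicate block and 1 fit over all 28 arrays) and without each of the 28 arrays in turn. Of 57 member changes called, 38 were called under every alternative run and 19 were lost under at least 1; none called in either setting changed sign. Leaving aside single arrays, the count of members called moved by over 1.5 times, or between 0 and 1, in 3 comparisons, and by less in others. For 36 h against 24 h of ONC201 it was 3 with no background correction, 3 with an offset of 50, 3 with the authors' values, 2 with quantile normalization within each experiment, 2 with 1 fit over all arrays and 0 with median scaling, in place of 1. For ONC201 in resistant Z138 it was 1 (BCL2L1, lower) with no background correction, with an offset of 50 and with 1 fit, in place of 0. For tunicamycin at 24 h against 12 h it was 1 (BCL2L2, higher) with the authors' values and with 1 fit, in place of 0. The share of all genes called under each alternative is not set beside these counts. MCL1 was called lower at 24 h (-0.31) and 36 h (-0.34) of ONC201 with the mean of its probes, and with that setting BCL2L1 lost its calls at 12 h of tunicamycin (adjusted p = 0.0544) and under rapamycin (adjusted p = 0.0875). BAX in parental Z138 lost its call with median scaling (adjusted p = 0.130) and without the detection filter (adjusted p = 0.0604), under which more probes are tested, and its difference between the Z138 lines was called with no background correction, an offset of 50, the authors' values and 1 fit (adjusted p = 0.00967, 0.0176, 0.0491 and 0.00903). PMAIP1 lost its call between treated lines under 5 of the 9. Under rapamycin, BCL2L11 lost its call with the authors' values and with no detection filter, and BCL2 with median scaling. The BCL2 difference of ONC201 from tunicamycin lost its call with median scaling (adjusted p = 0.15) and with no detection filter (adjusted p = 0.0531). The BCL2 difference of ONC201 from rapamycin lost its call with median scaling (adjusted p = 0.0613). BCL2L11 was called at 24 h of ONC201 with median scaling, no background correction and an offset of 50. With no background correction PMAIP1 had -0.80 under rapamycin and BCL2L2 had 0.40 at 24 h of tunicamycin, both still called. HRK was called between tunicamycin and rapamycin under 5 of the 9 (adjusted p = 0.0211 to 0.0432). The other causes were not tested.

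Leaving out 1 array at a time, the count of members called ranged from 4 to 5 at 24 h and 5 to 6 at 36 h of ONC201, from 2 to 4 for 24 h against 12 h, from 0 to 2 for 36 h against 24 h, from 3 to 5 in parental Z138, from 5 to 6 between treated lines, and from 3 to 5 for the difference between the lines. It ranged from 4 to 5 at 12 h and 5 to 6 at 24 h of tunicamycin, was 2 for rapamycin each time, ranged from 3 to 4 between tunicamycin and rapamycin, and from 0 to 1, 2 to 3 and 2 to 4 for the differences of the ONC201 effect from parental Z138, tunicamycin and rapamycin. Where this left 1 array in a group, that array was assumed to vary like the other groups. The test then has less power for every gene, and the share of all genes called in these fits is not set beside the counts. Same-numbered wells correlated at -0.202 to 0.125 in their deviations from the group means, so the numbers do not pair them. With the replicate block, PMAIP1 lost its calls at 24 h against 12 h (adjusted p = 0.0743) and between treated lines (adjusted p = 0.0648), and BCL2L11 lost its call under rapamycin (adjusted p = 0.0532); the block changed no other call. Signal over background limits the probes of BCL2A1 throughout, of BCL2L11 in Z138 and of BCL2L2 in resistant Z138. It also limits the third BCL2 probe (ILMN_2363250), detected on 0 arrays of the tunicamycin and rapamycin experiment. The second BCL2L1 probe was detected on 0 of 2 arrays at 24 h of tunicamycin. The second BAX probe was detected on 1 of 2 arrays of untreated JeKo-1 cells of 24 h and on 2 of 3 at 0, 12 and 24 h of the course.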
